A study of Homo sapiens with 12 samples.

Results

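*MALAT1*, *NEAT1* and *KCNQ1OT1* are long noncoding RNAs known for staying in the nucleus, and they are 3 of the 26364 gene symbols counted in these libraries. They were chosen by name, with the levels and the TNFα response of *MALAT1* in these data known beforehand. All 3 had reads in all 12 libraries and passed the expression filter of every test. RNA-seq was performed on total RNA of HCT116, a line derived from a human colon carcinoma. Each combination of line, inhibitor and TNFα was sequenced once, so no condition has a replicate. The lines were HCT116 WT and the p65-deficient clone 32. Each line was left without inhibitor or pre-treated with the TOP1 inhibitor CPT (camptothecin) or the TOP2 inhibitor ICRF193. Both were given at 5 µM for 2 h. Each of these treatments was left without TNFα (0 h) or received 20 ng/mL TNFα for 1 h. The study's RNA-seq methods also name a vehicle, and the labels do not say whether the libraries without inhibitor had it. If they did not, an inhibitor and its vehicle cannot be told apart. The p65-deficient cells are 1 single-cell clone, made with a guide RNA against the third exon of the gene of p65 per the study's methods, while the deposited labels call them shRNA p65. Any difference between the lines can therefore be a property of this clone as well as of p65.

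*MALAT1* is found in nuclear speckles, bodies rich in splicing factors. *NEAT1* is the scaffold of paraspeckles, bodies that form around its long isoform and hold proteins such as SFPQ and NONO. *KCNQ1OT1* is transcribed from inside the imprinted *KCNQ1* gene in the opposite direction and silences neighbouring genes on the chromosome copy that expresses it. The long *NEAT1* isoform and *MALAT1* end without a usual poly(A) tail, and their 3′ ends are protected by a triple helix of U-rich and A-rich stretches.

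In the hg19 annotation used for counting, *MALAT1* lies at chr11:65265233-65273983 on the plus strand, with 1 exon of 8751 bases. *NEAT1* lies 52224 bases away at chr11:65190269-65213009 on the same strand, with 1 exon of 22741 bases that encloses the microRNA gene *MIR612*, which had 0 reads in every library. *KCNQ1OT1* lies at chr11:2629558-2721228 on the minus strand, with 1 exon of 91671 bases inside *KCNQ1*. The counting was not set to use strand, so reads from unspliced *KCNQ1* RNA and from *KCNQ1OT1* cannot be told apart here. A single exon was listed for 5.41% of the genes tested with CPT and placed at 1 position.

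The 3′ arrangement is shown because *MALAT1* and *NEAT1* share it although the choice of genes did not use it. Capitals mark the U-rich stretches (T in the transcript file) and the A-rich stretch. The search took 2 runs of at least 3 T on either side of 1 or 2 other bases, then at least 5 A and at least 4 A around 1 or 2 other bases, with gaps of 10 to 60 bases, and was set up with the arrangement of these RNAs known. The sequences are from GENCODE 29 (GRCh38, plus strand), the longest *MALAT1* transcript at chr11:65506029-65506116 and the longest *NEAT1* transcript at chr11:65445453-65445540.
MALAT1: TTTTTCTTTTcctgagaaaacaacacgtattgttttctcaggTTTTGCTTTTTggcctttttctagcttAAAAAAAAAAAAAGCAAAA
NEAT1: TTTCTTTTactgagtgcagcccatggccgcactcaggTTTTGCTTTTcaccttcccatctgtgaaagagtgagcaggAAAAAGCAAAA
In *NEAT1* the stretch of 88 bases is the last of the annotated transcript, and in *MALAT1* a further 353 bases are annotated after it. No match was found in *KCNQ1OT1*, and 0.394% of 86337 GENCODE transcripts of at least 1000 bases held one.

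For *MALAT1*, RefSeq (GRCh38.p14) gave the promoter at chr11:65497488-65497787, plus strand, which is shown because the clone lacks p65, a subunit of NF-κB, per the study. Capitals mark the GC boxes (GGGCGG on either strand).
MALAT1 promoter: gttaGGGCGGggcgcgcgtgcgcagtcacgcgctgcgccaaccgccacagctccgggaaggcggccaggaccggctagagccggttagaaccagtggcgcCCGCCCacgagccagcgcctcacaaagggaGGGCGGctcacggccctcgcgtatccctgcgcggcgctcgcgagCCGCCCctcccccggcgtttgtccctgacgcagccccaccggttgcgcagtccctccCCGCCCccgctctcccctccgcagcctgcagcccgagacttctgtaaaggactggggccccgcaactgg
It held 5 GC boxes, a motif found in 45.0% of 35116 promoters of this length, and no match to the NF-κB consensus (5.91% of promoters), to the AP-1 motif TGANTCA (7.71%) or to the cAMP response element TGACGTCA (1.85%), each searched on both strands. A second *MALAT1* promoter, at chr11:65498795-65499094, held none of the 4 motifs. A missing match says only that these letters are not in this window.

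Between 8101212 and 22051046 reads were counted per library. Of the 6 p65-deficient libraries, 4 were shallow (8101212 to 8755001 reads). These were the 3 libraries with TNFα and the one with ICRF193 at 0 h. *RELA*, the gene of p65, had 694 to 909 normalized counts in WT and 548 to 673 in p65-deficient libraries, so its mRNA was lower but present, and p65 protein was not measured here. *TOP1*, which encodes the target of CPT, had 1766 to 2261 normalized counts, with a CPT log2 fold change of 0.10 (SE 0.05, adjusted p = 0.134). Of 8 colon epithelium markers 7 had at least 20 reads in every library, *VIL1* had 0 to 4, and of 5 leukocyte markers none reached 20 reads in every library.

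Levels are given as normalized counts, that is reads divided by the DESeq2 size factor of the library, and as normalized counts per kb of exon where genes are compared. *MALAT1* took 0.138% to 0.291% of the counted reads and ranked 12th to 33rd of all genes by reads. Per kb, *MALAT1* had 2304 to 4730 normalized counts and stood above 96.7% to 98.9% of the 13993 genes tested with CPT, whose median lay between 101 and 115. *NEAT1* had 31.1 to 87.4 per kb, above 27.2% to 44.0% of these genes. *KCNQ1OT1* had 4.26 to 15.0 per kb, above 7.28% to 17.1% of them. Per kb, *NEAT1* and *KCNQ1OT1* thus lay below the median gene in every library, whereas by reads, which favour long exons, they ranked 1535th to 4884th and 2487th to 6938th. The level of *MALAT1* per kb was 45.8 to 74.1 times that of *NEAT1* in the same library. For *NEAT1* all reads were divided by the full annotated exon of 22741 bases. Isoforms of *NEAT1* cannot be told apart in these counts, so its level per kb and these ratios depend on that length. Nuclear retention was not measured, since the libraries hold RNA of whole cells.

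The values of each gene are given in the order no inhibitor, CPT, ICRF193. In WT cells, *MALAT1* had 23586, 34842 and 24740 normalized counts at 0 h, and 20165, 33690 and 23083 at 1 h TNFα. In p65-deficient cells it had 23387, 34426 and 30149 at 0 h, and 33573, 41394 and 36013 at 1 h. The highest library was p65-deficient with CPT and TNFα and the lowest was WT with TNFα alone. The 2 lines differed by less than counting error in the untreated libraries and in those with CPT alone.

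In the same order, *NEAT1* had 896, 1625 and 952 normalized counts in WT at 0 h, and 707, 1758 and 937 at 1 h. In p65-deficient cells it had 1225, 1607 and 1491 at 0 h, and 1905, 1636 and 1988 at 1 h. The WT libraries fell into a higher pair with CPT and 4 lower ones. In p65-deficient cells the CPT libraries were not apart from the rest.

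*KCNQ1OT1* had 524, 1154 and 528 normalized counts in WT at 0 h, and 390, 1274 and 451 at 1 h. In p65-deficient cells it had 599, 1237 and 664 at 0 h, and 778, 1380 and 826 at 1 h. The 4 CPT libraries, between 1154 and 1380, lay above all 8 others, between 390 and 826. When the 12 libraries were ordered by level, the counting interval of the ratio between neighbours included no change for 4 of 11 neighbours in *MALAT1*, 7 in *NEAT1* and 6 in *KCNQ1OT1*.

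**Figure D1:**
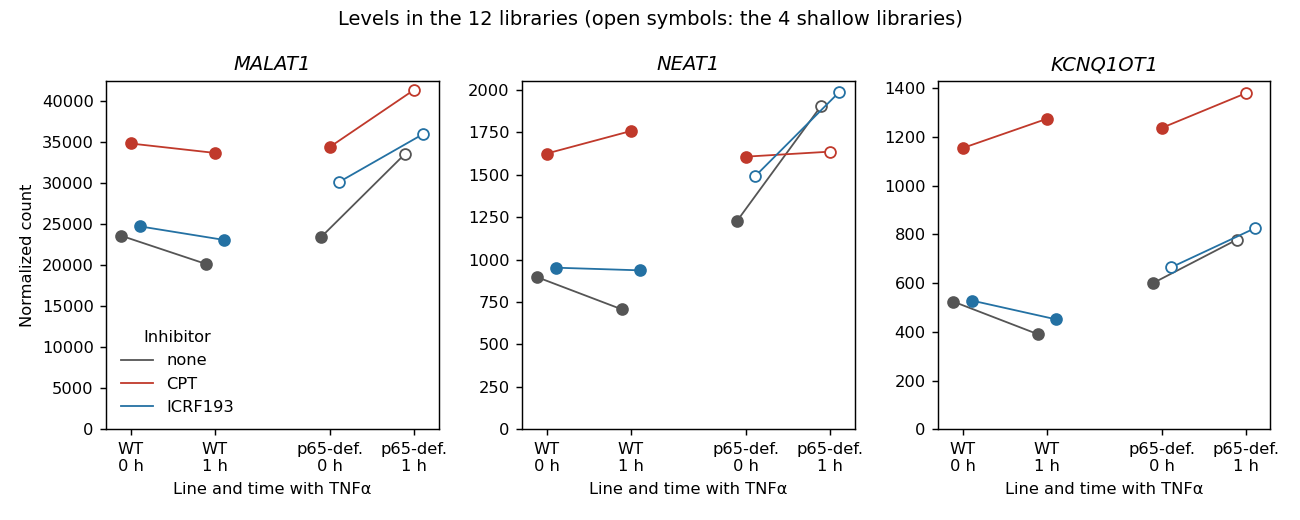
Normalized count (y axis, linear from 0) of each gene in the 12 libraries, by line and hours with TNFα (x axis), coloured by inhibitor. Each point is 1 library, lines join 0 h and 1 h, and open symbols are the 4 shallow p65-deficient libraries; the 4 CPT libraries of *KCNQ1OT1* lie between 1154 and 1380, above all others.

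With CPT, which traps TOP1 on DNA, all 3 RNAs were called higher over the 4 pairs, *NEAT1* in 3 of the 4 and not under every setting. In this comparison 23.2% of 13993 genes were called higher and 25.1% lower (edgeR quasi-likelihood test over 4 matched pairs, adjusted p under 0.05). Each log2 ratio below compares 2 libraries, with a 95% Clopper-Pearson interval that covers counting error only and treats reads as independent molecules. For *MALAT1* the log2 ratios of CPT to no inhibitor were 0.56 and 0.74 in WT at 0 h and 1 h, and 0.56 and 0.30 in p65-deficient cells. All 4 lay above 0, and the edgeR log2 fold change was 0.53 (SE 0.07, 1.45-fold, adjusted p = 8.03e-05). For *KCNQ1OT1* they were 1.14 and 1.71 in WT, and 1.05 and 0.83 in p65-deficient cells. The fold change of *KCNQ1OT1* was 1.17 on the log2 scale (SE 0.11, 2.26-fold, adjusted p = 8.64e-06), above 95.9% of the genes tested.

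*NEAT1* was less uniform. Its log2 ratios were 0.86 (0.76 to 0.96) and 1.31 (1.20 to 1.43) in WT at 0 h and 1 h, but 0.39 (0.30 to 0.48) and -0.22 (-0.35 to -0.09) in p65-deficient cells. *NEAT1* was thus higher with CPT in 3 of 4 pairs and lower in p65-deficient cells with TNFα. Over the 4 pairs the log2 fold change was 0.59 (SE 0.18, adjusted p = 0.0187). The call was lost without the block (adjusted p = 0.130), with DESeq2 (0.135) and without either WT pair (0.0841 and 0.0913).

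The difference in the CPT effect between the lines was tested as an interaction term, for which 2.38% of 14573 genes were called lower and 2.39% higher in the p65-deficient cells. The CPT effect on *NEAT1* was smaller in p65-deficient cells by 0.99 on the log2 scale (log2 difference -0.99, SE 0.16, adjusted p = 0.00112). With DESeq2 that difference was -0.99 with an adjusted p of 0.210. The 2 libraries within each CPT pair had like depth, but in p65-deficient cells both were deep at 0 h and both shallow at 1 h. Without that shallow pair the *NEAT1* difference was -0.67. Whether depth or TNFα had a part in it was not tested. For *MALAT1* the difference was -0.24 (SE 0.09, adjusted p = 0.120) and for *KCNQ1OT1* -0.48 (SE 0.14, adjusted p = 0.0617), so neither passed. Without the WT or the p65-deficient pair at 0 h, *MALAT1* was at -0.33 or -0.36 and *KCNQ1OT1* at -0.77 or -0.60. Without the WT or the p65-deficient pair at 1 h, *MALAT1* was at -0.16 or -0.08 and *KCNQ1OT1* at -0.21 or -0.35. Each such fit left a line with a single pair. Without its 0 h pair, that line had only its pair with TNFα, whose response was used to choose *MALAT1*.

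**Figure D2:**
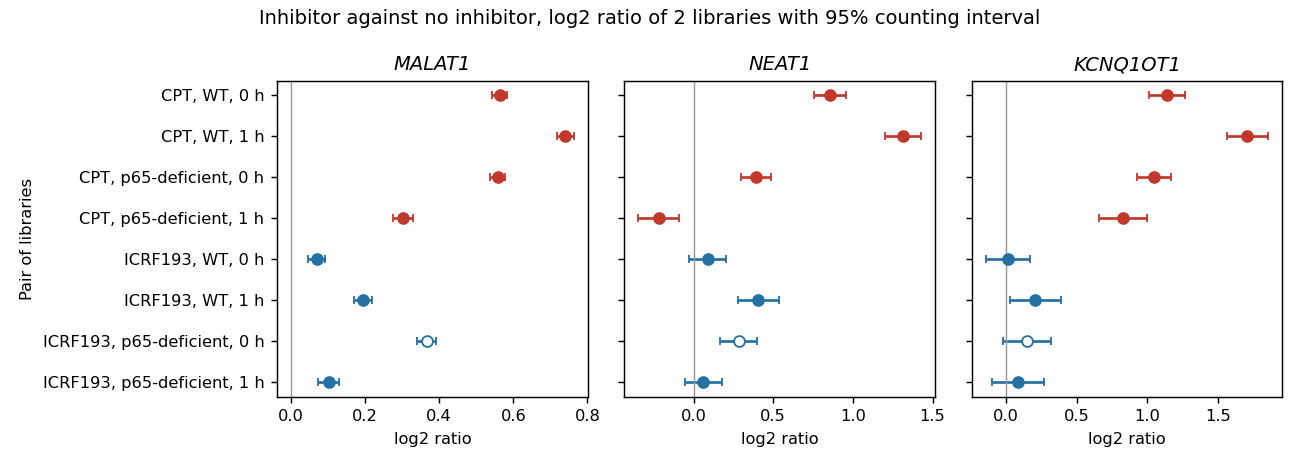
Log2 ratio of each inhibitor library to its matched library without inhibitor (x axis) for each of 4 pairs per inhibitor (y axis); bars are 95% counting intervals, and the open symbol is the pair of unequal depth. CPT ratios of *KCNQ1OT1* lie between 0.83 and 1.71, and the *NEAT1* ratio in p65-deficient cells at 1 h is -0.22.

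Genes with a genomic span within a factor of 1.5 of each member give a background for length. Of 2223 genes with a span like that of *KCNQ1OT1*, 8.64% were called higher with CPT and their median log2 fold change was -0.09. For *NEAT1* the 3109 genes of like span had a median of 0.03 with 20.5% higher, and for *MALAT1* the 2252 genes had 0.13 with 35.9% higher. All 3 RNAs lay above the median of their span class.

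ICRF193, which blocks TOP2 without trapping it in the cleaved state, had smaller effects, and in this comparison 0.587% of 13631 genes were called higher and 1.58% lower. The log2 ratios of *MALAT1* were 0.07 and 0.20 in WT at 0 h and 1 h, and 0.37 and 0.10 in p65-deficient cells, with a log2 fold change of 0.18 (SE 0.04, adjusted p = 0.00377). *NEAT1* had 0.09 and 0.41 in WT, and 0.28 and 0.06 in p65-deficient cells, with a log2 fold change of 0.21 (SE 0.04, adjusted p = 0.00307). *KCNQ1OT1* had 0.01 and 0.21, and 0.15 and 0.09, with a log2 fold change of 0.11 (SE 0.05, adjusted p = 0.384). *MALAT1* and *NEAT1* were thus called higher and *KCNQ1OT1* was not, although all 12 ratios were above 0. The p65-deficient pair at 0 h sets a shallow against a deep library; without it the log2 fold change of *MALAT1* was 0.12 and that of *NEAT1* 0.18, both still called, where 0.616% of genes were called higher. Without the block or with DESeq2 neither was called (adjusted p = 1.00 and 0.411 for *MALAT1*, 1.00 and 0.117 for *NEAT1*), and without the WT pair at 1 h they had 0.123 and 0.217.

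The ICRF193 effect did not pass the test for a difference between the lines in any of the 3 RNAs (log2 differences 0.10, -0.06 and 0.02, SE 0.08, 0.09 and 0.10, adjusted p = 0.999 each), where 0.0567% of 14101 genes passed. At the same dose and time, CPT was compared directly with ICRF193, and 20.9% of 13900 genes were higher with CPT. *KCNQ1OT1* was higher with CPT by 1.05 on the log2 scale (SE 0.10, adjusted p = 1.62e-06) and *MALAT1* by 0.34 (SE 0.07, adjusted p = 0.00166), the latter not called without the block (0.0740). *NEAT1* was at 0.37 (SE 0.14, adjusted p = 0.0524), just outside the threshold.

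Between the lines, all 3 RNAs were called higher in p65-deficient than in WT cells, where 15.2% of 13730 genes were called higher. The fitted fold changes were smaller over the 2 pairs with a deep p65-deficient library than over the 4 others. For *MALAT1* the log2 ratios of p65-deficient to WT were -0.01 without inhibitor and -0.02 with CPT at 0 h, the 2 pairs with a deep p65-deficient library. In the 4 other pairs they were 0.29 with ICRF193 at 0 h, and at 1 h 0.74 without inhibitor, 0.30 with CPT and 0.64 with ICRF193. For *NEAT1* the ratios were 0.45 and -0.02 in the 2 deep pairs, and 0.65, 1.43, -0.10 and 1.09 in the 4 shallow pairs. For *KCNQ1OT1* they were 0.19 and 0.10, and 0.33, 1.00, 0.11 and 0.87.

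Over all 6 pairs the log2 fold change was 0.33 for *MALAT1* (SE 0.09, 1.26-fold, adjusted p = 0.0111), 0.57 for *NEAT1* (SE 0.15, 1.49-fold, adjusted p = 0.0121) and 0.41 for *KCNQ1OT1* (SE 0.11, 1.33-fold, adjusted p = 0.00945). Over the 2 deep pairs it was -0.01 for *MALAT1* (adjusted p = 0.973), 0.22 for *NEAT1* (0.380) and 0.15 for *KCNQ1OT1* (0.572), where 1.58% of genes were called higher and 2.07% lower. Over the 4 shallow pairs it was 0.51, 0.77 and 0.57, each called, where 16.5% of genes were called higher and 17.0% lower. Of the shallow pairs 3 also had TNFα, so that depth and TNFα cannot be told apart in them. Those 3 pairs hold the 1 h values of the TNFα response by which *MALAT1* was chosen. Its calls over the shallow pairs and over all 6 therefore partly restate that choice. With every library thinned to the depth of the shallowest, the fold changes over all 6 pairs were 0.34, 0.54 and 0.43 on the log2 scale (adjusted p = 0.00661, 0.0107 and 0.00563), and 3680 genes were called. The smaller fold changes of the deep pairs were not tested against those of the shallow ones. Without the block none of the 3 passed (adjusted p = 0.200, 0.130 and 0.548), and with DESeq2 *MALAT1* and *NEAT1* missed the threshold (0.0537 and 0.0608).

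**Figure D3:**
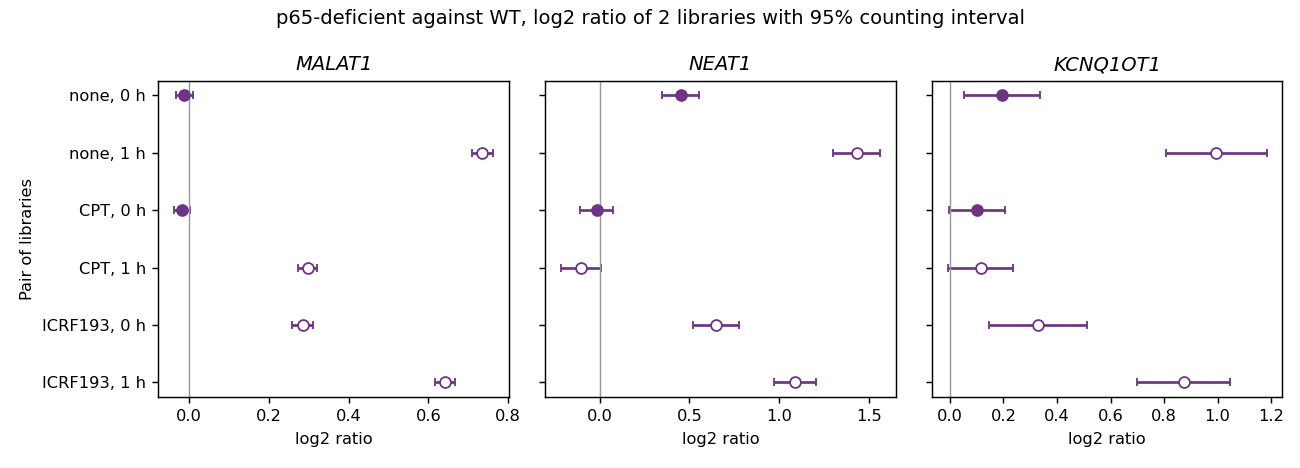
Log2 ratio of the p65-deficient to the WT library (x axis) for each of the 6 pairs of like treatment (y axis: inhibitor and hours with TNFα); bars are 95% counting intervals and open symbols are pairs with a shallow p65-deficient library. *MALAT1* lies at -0.01 and -0.02 in the 2 deep pairs and between 0.29 and 0.74 in the 4 shallow ones.

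The TNFα response is described without a test, since it was used to choose the genes. In WT cells the log2 ratio of *MALAT1* at 1 h to 0 h was -0.23 (-0.25 to -0.20) without inhibitor, -0.05 (-0.07 to -0.03) with CPT and -0.10 (-0.12 to -0.08) with ICRF193. In p65-deficient cells it was 0.52 (0.50 to 0.55), 0.27 (0.24 to 0.29) and 0.26 (0.23 to 0.28). The ratios lay below 0 in WT and above 0 in the clone, the pattern by which *MALAT1* was chosen. The intervals cover counting error only and are no test of this response. The pattern was counted among 12508 genes with a mean normalized count of at least 20 and reads in every library. Of these, 206 (1.65%) were lower in all 3 WT pairs and higher in all 3 p65-deficient pairs. The reverse pattern held for 405 (3.24%). *MALAT1* was chosen for the first pattern, so its place among those 206 genes is a description and no result.

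*NEAT1* and *KCNQ1OT1* did not have this pattern. *NEAT1* had -0.34, 0.11 and -0.02 in WT, and 0.64, 0.03 and 0.42 in p65-deficient cells, in the same order. *KCNQ1OT1* had -0.42, 0.14 and -0.23 in WT, and 0.38, 0.16 and 0.31 in p65-deficient cells. Without inhibitor all 3 RNAs were lower with TNFα in WT and higher in the clone. Only the ICRF193 pair of the p65-deficient cells compares libraries of like depth, and there the ratios were 0.26, 0.42 and 0.31.

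**Figure D4:**
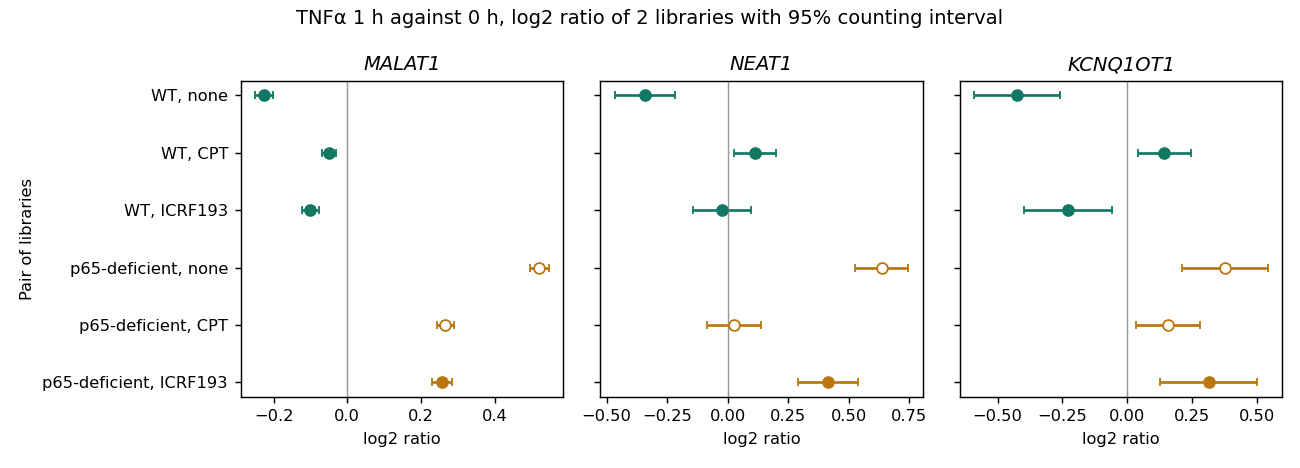
Log2 ratio of 1 h to 0 h TNFα (x axis) for the 3 pairs of each line (y axis: line and inhibitor); bars are 95% counting intervals and open symbols are pairs of unequal depth. *MALAT1* lies between -0.23 and -0.05 in WT and between 0.26 and 0.52 in p65-deficient cells.

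*MALAT1* and *NEAT1* share their stretch of chromosome 11 with *RELA*, which lies 147084 bases from *MALAT1*. Of 25 other genes within 250 kb, 22 were tested with CPT, of which 9 were called higher and 2 lower, beside 23.2% and 25.1% of all genes; DESeq2 called 9 of the 22. *CDC42EP2*, an effector of the GTPase CDC42, fell by 1.73 on the log2 scale with CPT (SE 0.08, adjusted p = 4.24e-08). *FRMD8*, which lies 9274 bases from *NEAT1*, fell by 0.67 (SE 0.08, adjusted p = 3.34e-05). *SPDYC* (1.55) and *SSSCA1-AS1* (1.29) rose, both with at most 32.0 normalized counts in any library. With ICRF193 none of 21 was called by edgeR or DESeq2, 1 had an unadjusted p under 0.05, and *FRMD8* came closest at 0.15 (adjusted p = 0.0613).

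Between the lines 7 of these 22 genes were called higher and 2 lower, beside 15.2% and 16.9% of all genes, and DESeq2 called 4 of the 22. *RELA* was lower in p65-deficient cells by 0.45 (log2 fold change -0.45, SE 0.08, adjusted p = 0.000918), and *KAT5*, a histone acetyltransferase gene, had -0.14 (adjusted p = 0.0438). *LTBP3*, which encodes a binding protein of latent TGFβ, was higher by 0.27 (SE 0.05, adjusted p = 0.00129) and *SIPA1* by 0.31 (SE 0.05, adjusted p = 0.000408). Over the 2 deep pairs 1 of 22 was called higher and none lower, beside 1.58% and 2.07% of all genes. Over the 4 shallow pairs 4 of 19 were higher and 2 lower, beside 16.5% and 17.0%.

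**Figure D5:**
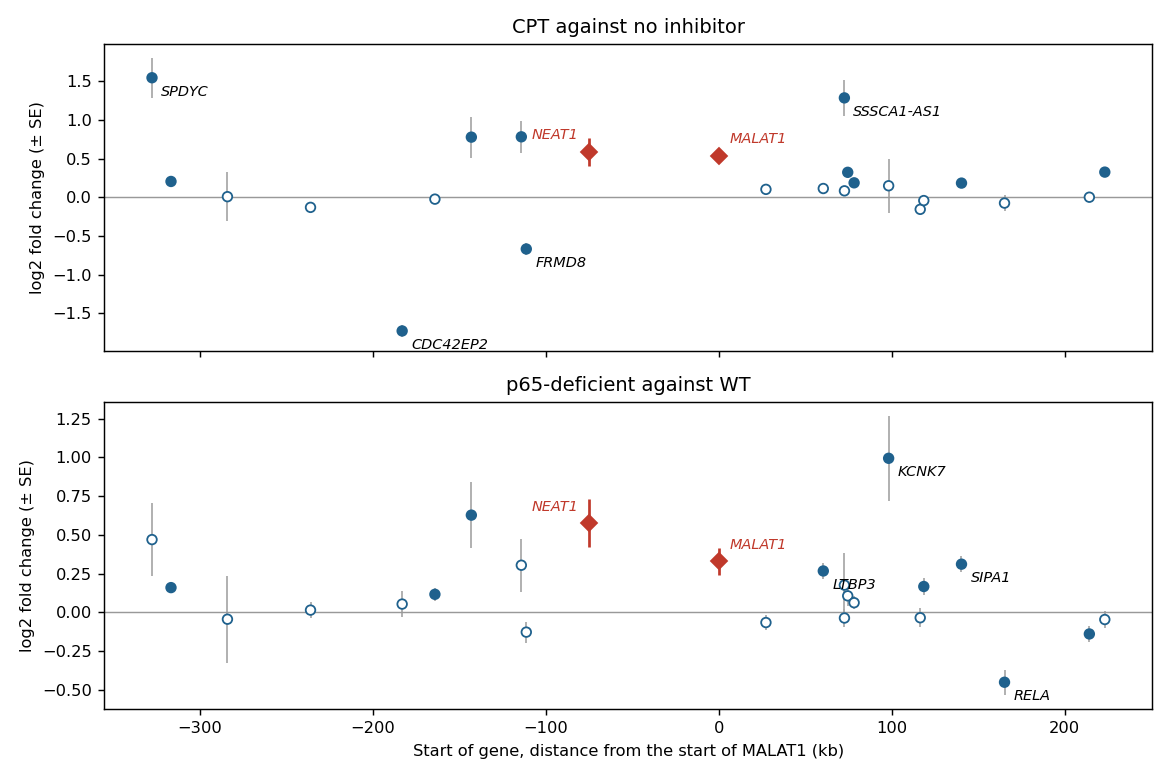
Log2 fold change ± SE (y axis) of the genes within 250 kb of *MALAT1* or *NEAT1*, by the distance of the gene's start from that of *MALAT1* (x axis, kb), for CPT against no inhibitor (upper) and p65-deficient against WT over 6 pairs (lower). Filled circles have an adjusted p under 0.05 and diamonds are *MALAT1* and *NEAT1*; with CPT, *CDC42EP2* is at -1.73 and *FRMD8* at -0.67.

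Around *KCNQ1OT1*, 9 of 12 genes within 250 kb were tested with CPT, of which 6 were called higher and 1 lower, beside 23.2% and 25.1% of all genes. *CDKN1C*, a cyclin-dependent kinase inhibitor of the imprinted domain, rose by 1.11 (SE 0.11, adjusted p = 1.35e-05). *PHLDA2* rose by 0.64 and *SLC22A18* by 0.60, both of the same domain, and the ion channel gene *TRPM5* rose by 3.11 from a low level (4.06 to 76.6 normalized counts over the 12 libraries). *TSSC4* fell by 0.30. A list of the wider imprinted domain, with 12 tested genes, holds all 9 of these genes and had the same counts of calls, so it adds no separate evidence. The host gene *KCNQ1* had 17 to 84 reads per library, with a CPT log2 fold change of 0.03 (SE 0.17, adjusted p = 0.892). This count covers the exons of *KCNQ1* only, so it cannot tell whether unspliced *KCNQ1* RNA added to the reads of *KCNQ1OT1*. Between the lines *KCNQ1* was lower by 0.53 (log2 fold change -0.53, SE 0.14, adjusted p = 0.0117). It was not called with DESeq2, nor over the 2 deep pairs (-0.66) or the 4 shallow pairs (-0.42).

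Of 32 genes of paraspeckle proteins, which assemble on *NEAT1*, 6 were called higher and 7 lower with CPT, beside 23.2% and 25.1% of all genes, and their median log2 fold change was 0.0030 against 0.024 for all genes. *RBM7* fell by 0.92 and *RBM12* by 0.40, whereas the core protein gene *SFPQ* was at -0.0045 (adjusted p = 0.962) and *NONO* at 0.12 (SE 0.04, adjusted p = 0.0357). Between the lines 3 were higher and 12 lower, beside 15.2% and 16.9% of all genes. *SFPQ* was lower in p65-deficient cells (log2 fold change -0.37, SE 0.05, adjusted p = 9.96e-05), as was *NONO* (-0.13, SE 0.04, adjusted p = 0.0186), while *NEAT1* itself was higher over the same pairs. Over the 2 deep pairs 1 of the 32 was called, *RBM12* (log2 fold change -0.54), where 2.07% of all genes were called lower. *SFPQ* and *NONO* were not called over these pairs, and neither was *NEAT1* (edgeR log2 fold change 0.22, adjusted p = 0.380). *PSPC1*, the gene of another core protein, had a log2 fold change between the lines of 0.02 (SE 0.04, adjusted p = 0.734).

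Of 30 genes of nuclear speckle components, where *MALAT1* resides, 4 were called higher and 9 lower with CPT, beside 23.2% and 25.1% of all genes, with a median of -0.03. Among those called, the genes with the largest changes were *CLK1*, which fell by 1.46, *DYRK1A* by 1.43, *CLK4* by 1.01 and *PRPF4B* by 0.71. Each of these 4 encodes a protein kinase, and the list was not tested for kinases. The scaffold genes *SON* and *SRRM2* had CPT log2 fold changes of -0.09 (adjusted p = 0.194) and 0.16 (adjusted p = 0.109). Between the lines 3 were higher and 10 lower, beside 15.2% and 16.9% of all genes. Over the 2 deep pairs 1 was called, lower, where 2.07% of all genes were called lower.

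The 3′ end of *MALAT1* is cut by RNase P, and unprotected nuclear RNAs are degraded by the exosome and its adaptors. Of 26 tested genes of such processing, binding and decay factors, 4 were called higher and 11 lower with CPT, beside 23.2% and 25.1% of all genes. The genes with the largest changes among those called were all lower. The RNase P subunit genes *RPP38* and *RPP14* fell by 1.48 and 0.99, and the exosome adaptor genes *RBM7* and *ZCCHC8* by 0.92 and 0.75. Of the 4 higher genes, *POP5*, also of RNase P, had the largest change (0.26). With ICRF193 *ZCCHC8* alone was called (log2 fold change -0.21, SE 0.05, adjusted p = 0.00746), and it was not called with DESeq2. Between the lines 1 was higher and 6 lower, beside 15.2% and 16.9% of all genes. Over the 2 deep pairs 1 of the 26, *POP1*, was lower, where 2.07% of all genes were called lower. None of the genes of paraspeckle proteins, speckle components or these factors passed the TNFα test in either line by edgeR or DESeq2, where 0.642% of genes passed in WT and 0.498% in p65-deficient cells. At an unadjusted p under 0.05 there were 0, 1 and 0 of them in WT and 5, 6 and 4 in p65-deficient cells.

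Among 33 other long noncoding RNAs, 23 were tested with CPT, of which 7 were called higher and 4 lower, with a median of 0.08. *MIR210HG* rose by 2.18, *MIAT* by 1.88 and *MIR22HG* by 1.70, all from low levels of 6.42 to 77.9 normalized counts, and *MIR17HG* fell by 1.06. The share called higher, 7 of 23, stood beside 23.2% of all genes, and the 4 called lower beside 25.1%. With TNFα *MIR17HG* was called in p65-deficient cells (0.65, SE 0.09, adjusted p = 0.000317) but not with DESeq2, in pairs of which 2 have unequal depth. With ICRF193 none of 24 was called by edgeR or DESeq2 (5 at an unadjusted p under 0.05). Between the lines 5 of 24 were higher and 3 lower, beside 15.2% and 16.9% of all genes.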

How the data were processed

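The authors trimmed reads, mapped them to hg19 and counted them; Trimmomatic, STAR and featureCounts are named in the submitters' processing notes. The deposited values are raw counts per gene symbol (featureCounts 1.5.0 on exons, not set to use strand per the file headers). The library kit keeps strand. The labels and the study's methods name different RNA extraction kits.

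The 3 genes, the gene lists and the tests were chosen with earlier results of these data known. Named genes are the 3 members, *RELA*, *TOP1*, *KCNQ1* and *CDKN1C*, the tested genes within 250 kb, 6 scaffold genes (1 is not reported here), up to 4 genes per list with the largest change among those called, and the 5 genes most like each member. Tests across all genes used edgeR 4.0.16 (TMM, filterByExpr, quasi-likelihood, Benjamini-Hochberg, adjusted p under 0.05) with the pair as a block. Pairs are libraries whose labels are alike in everything but the factor tested. They stand in for replicates. The p-values rest on the spread between pairs after it was moderated toward that of all genes. They are therefore no plain measure of how far the pairs of 1 gene disagree. For *NEAT1* with CPT the log2 ratios of the 4 pairs had an SD of 0.66, and the fitted SE was 0.18. The study describes the inhibitor as given 2 h before TNFα. Inhibitor libraries at 1 h may therefore have had the inhibitor longer than those at 0 h. The SE is the log2 fold change divided by the square root of F. The scripts were tested on simulated data. DESeq2 1.42.0, R 4.3.3, Python 3.11.15, scipy 1.17.1 and matplotlib 3.10.9 were also used. Alternatives were other normalizations, no filter, no block, DESeq2, leaving out each pair, thinning to the shallowest library, and subsets by depth; leave-one-out for the interaction and for CPT against ICRF193, DESeq2 and no filter for the latter, all settings for TNFα, and list counts by depth were chosen after seeing the data.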

Additional observations from a re-analysis of the deposited data

Results flagged for a closer look

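The effect of CPT on *NEAT1* differed between the lines by the interaction test, with a log2 difference of -0.99 in p65-deficient relative to WT cells, and it ranged from -1.31 to -0.67 when each pair was left out. With DESeq2 it was -0.99 with an adjusted p of 0.210, and so not called. *MALAT1* was lower with TNFα in every WT pair (median log2 ratio -0.10) and higher in every p65-deficient pair (median 0.27); this difference was not tested, because it was used to choose the genes. No condition had 4 or more libraries, so single libraries were not examined for standing apart within a group.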

How the results depend on the processing

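No condition has a replicate, only 1 clone was studied, and depth coincides with TNFα in 2 of 3 p65-deficient pairs. Fold changes are log2, and the causes of differences between settings were not tested. Without the replicate block, *NEAT1* with CPT (0.49), *MALAT1* and *NEAT1* with ICRF193 (0.18, 0.19), all 3 between the lines (0.32, 0.52, 0.35; adjusted p = 0.200, 0.130, 0.548) and *MALAT1* for CPT against ICRF193 (0.32) were no longer called. With DESeq2, *NEAT1* with CPT (0.59), *MALAT1* and *NEAT1* with ICRF193 (0.18, 0.21), *MALAT1* and *NEAT1* between the lines (0.33, 0.58) and the *NEAT1* interaction (-0.99) were not called. *NEAT1* for CPT against ICRF193 was called with DESeq2 size factors (0.39) and with no filter (0.36). The median TNFα ratios of the 3 RNAs kept their direction with TMM and total-read scaling. Over the 2 deep pairs the line effect was -0.014 for *MALAT1*, a reversed sign, 0.22 for *NEAT1* and 0.15 for *KCNQ1OT1*.

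Counts of genes called moved from 296 to 3 (no block) and 83 (DESeq2) for ICRF193, from 4408 to 2043 (no block) and 521 (2 deep pairs) between the lines, from 696 to 148 (DESeq2) for the CPT interaction, from 8 to 5 (total reads) and 0 (DESeq2; 31 at an unadjusted p under 0.05) for the ICRF193 interaction, from 88 to 25 (DESeq2) and 0 (no block; 97 at an unadjusted p under 0.05) for TNFα in WT, and from 64 to 39 (total reads), 2 (DESeq2), 143 (no filter) and 0 (no block; 129 unadjusted) for TNFα in p65-deficient cells.

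Leaving out each pair gave 0.35 to 0.84 for *NEAT1* with CPT, 0.12 to 0.22 and 0.15 to 0.26 for *MALAT1* and *NEAT1* with ICRF193, 0.24 to 0.41 and 0.41 to 0.71 for *MALAT1* and *NEAT1* between the lines (each lost only without ICRF193 at 1 h), -0.36 to -0.077 for *MALAT1* and -0.77 to -0.21 for *KCNQ1OT1* in the CPT interaction, 0.19 to 0.58 for *NEAT1* in CPT against ICRF193, and 148 to 322, 277 to 1697, 60 to 372 and 14 to 581 genes called for ICRF193, the CPT interaction, and TNFα in WT and p65-deficient cells. Of the 5 genes most like each RNA, Spearman's rho kept 0 for *MALAT1*, 1 for *NEAT1* and 1 for *KCNQ1OT1*, and leaving out the CPT libraries kept 0 for each.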

Other observations

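Of the small nuclear noncoding RNAs, 3 of 6 were in the count tables. With CPT 2 of these 3 were called higher and none lower, beside 23.2% and 25.1% of all genes, and *RMRP* was not called. *RPPH1*, the RNA of RNase P, and *TERC*, the telomerase RNA, rose with CPT by 0.39 (SE 0.06, adjusted p = 0.000462) and 0.30 (SE 0.04, adjusted p = 0.000145) on the log2 scale. The CPT effect on *RPPH1* was smaller in p65-deficient cells (log2 difference -0.21, SE 0.06, adjusted p = 0.0398), where 2.38% of genes were called lower, and it was not called with DESeq2.

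Over the 12 libraries, the Pearson correlation of log2(normalized count + 1) was 0.91 between *MALAT1* and *NEAT1*, 0.92 between *MALAT1* and *KCNQ1OT1* and 0.82 between *NEAT1* and *KCNQ1OT1*. These points share lines, inhibitors and depth and are not independent. Among 10125 genes with a mean normalized count of at least 100, the 5 most like *MALAT1* were *NXT2* (r = 0.96), *ASIC1*, *PABPC1L*, *PHF6* and *KCNQ1OT1*. For *NEAT1* they were *LOC100131564* (r = 0.93), *HEXIM1*, *SYTL4*, *MALAT1* and *GPR180*, and for *KCNQ1OT1* they were *PABPC1L* (r = 0.97), *SPSB2*, *EPPK1*, *NRBP2* and *SEMA3G*.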
